A study of Mus musculus with 8 samples.

Results

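The miR-23, miR-27 and miR-24 microRNAs come from a pair of genomic clusters, and 6 of their mature names were followed in mouse liver and in liver mitochondria: miR-23a-3p, miR-23b-3p, miR-27a-3p, miR-27b-3p, miR-27b-5p and miR-24-3p. These 6 were taken by name from the 862 miRNA names that 8 small RNA libraries listed, and each of the 6 was found in every library. The animals were male wild-type C57BL/6J mice, 8 weeks old when allocated to a diet that lasted 12 weeks. Mice under caloric restriction (CR) received 20% less food for 1 week and 40% less for the other 11 weeks, and control mice ate ad libitum (AL). The groups were 3 libraries of CR liver mitochondria, 3 libraries of AL liver mitochondria, 1 library of CR whole liver and 1 library of AL whole liver. Mitochondria were isolated by differential centrifugation and purified as mitoplasts, that is, without most of the outer membrane. Each whole-liver library was a pool of 3 RNA samples of its diet in equal amounts, so whole liver had no replicate library. Nothing in the labels says whether the 3 mitochondrial libraries of a diet came from different animals, and p-values then measure the spread between libraries, part of which may be technical.

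A microRNA guides Argonaute proteins to messenger RNAs, mainly through its seed, the bases 2 to 8 from its 5′ end. It is cut from a hairpin with 2 arms, named 5p and 3p, of which 1 is usually kept and the other mostly degraded. miR-27b has been described in human and mouse hepatocytes as a regulator of lipid metabolism genes, miR-23b cluster miRNAs as repressors of Smad mRNAs in mouse fetal liver cells, and both clusters as regulators of vessel growth in mouse endothelium. miR-23a has been described as a repressor of glutaminase in human cells, and miR-24 as a brake on cell cycle genes.

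The sequences show that the 6 names hold 4 seeds, with the miR-23 pair and the miR-27 pair of 3p arms each sharing 1, and they were the ones listed in the deposited tables. Capitals mark the seed.
miR-23a-3p: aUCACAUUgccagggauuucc
miR-23b-3p: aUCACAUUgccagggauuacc
miR-27a-3p: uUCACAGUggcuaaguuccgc
miR-27b-3p: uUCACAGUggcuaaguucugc
miR-24-3p: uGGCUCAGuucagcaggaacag
miR-27b-5p: aGAGCUUAgcugauuggugaac
miR-23a-3p and miR-23b-3p differ at 1 of 21 bases, written U19A with the base of miR-23a-3p named before that of miR-23b-3p and positions counted from the 5′ end. miR-27a-3p and miR-27b-3p also differ at 1 of 21 bases, C19U, with miR-27a-3p named before miR-27b-3p. No other name in the tables had the seed of any of the 6. The mismatches that the authors allowed when assigning reads are not given in the sources used here, so a read with a sequencing error at position 19 could be counted for the wrong member of either pair.

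Both clusters were placed with RefSeq coordinates of GRCm38.p6, which is not the build mm9 used by the authors. The miR-23a cluster spans 404 bases of chromosome 8 (84208518 to 84208921, plus strand) and holds the hairpins Mir23a, Mir27a and Mir24-2. No annotated protein-coding gene overlaps it, and the lincRNA gene Gm26532 begins in the last bases of Mir24-2. The miR-23b cluster spans 792 bases of chromosome 13 (63300484 to 63301275, plus strand) with Mir23b, Mir27b and Mir24-1, inside the protein-coding gene 2010111I01Rik on the same strand and Fancc on the opposite strand. Mir23b overlaps no annotated exon of 2010111I01Rik, Mir27b lies within an exon annotated from 63300605 to 63300793, and Mir24-1 overlaps annotated exons. The miR-27 hairpins are printed in full, with mature arms in capitals, to show how the 5p and 3p arms whose reads are compared sit in them.
Mir27a: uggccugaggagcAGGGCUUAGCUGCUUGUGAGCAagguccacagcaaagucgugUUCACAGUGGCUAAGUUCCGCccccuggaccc
Mir27b: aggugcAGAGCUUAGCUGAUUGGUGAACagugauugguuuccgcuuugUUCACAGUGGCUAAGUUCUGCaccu
miR-24-3p is the same sequence in Mir24-2 and Mir24-1, so its reads cannot be divided between the clusters, whereas the 5p arms of those hairpins differ.

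Levels are in RPM, the reads of a name scaled to 1000000 miRNA reads per library. The mitochondrial libraries held 1070762 to 1577691 reads and the pools 3242002 (CR) and 2431564 (AL), so 1 read was worth 0.308 to 0.934 RPM. miR-122, the main miRNA of hepatocytes, took 25.2% to 58.1% of reads under CR and 38.0% to 45.3% under AL in mitochondria, and 26.3% (CR) and 25.5% (AL) in the pools. RPM of every other miRNA depends on that share, and the second CR mitochondrial library, at 25.2%, stood apart from the other 5 mitochondrial libraries. In bulk RNA, fewer cells of a type and less RNA per cell cannot be told apart.

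miR-27b-3p was the most abundant of the 6 in every library and miR-24-3p came next in every library. miR-27a-3p and miR-23a-3p followed, changing places between libraries, and miR-23b-3p stood below both in 7 of 8 libraries. In the CR pool miR-23b-3p was above miR-23a-3p. miR-27b-5p was the lowest in all 8, at 0.934 to 14.0 RPM. Together the 6 names made up 0.399% to 0.621% of reads in CR mitochondria, 0.539% to 0.808% in AL mitochondria, 1.498% in the CR pool and 1.82% in the AL pool. miR-27b-3p alone was 49.7% to 66.2% of that sum in mitochondria, against 82.1% in the CR pool and 79.1% in the AL pool.

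**Figure D1:**
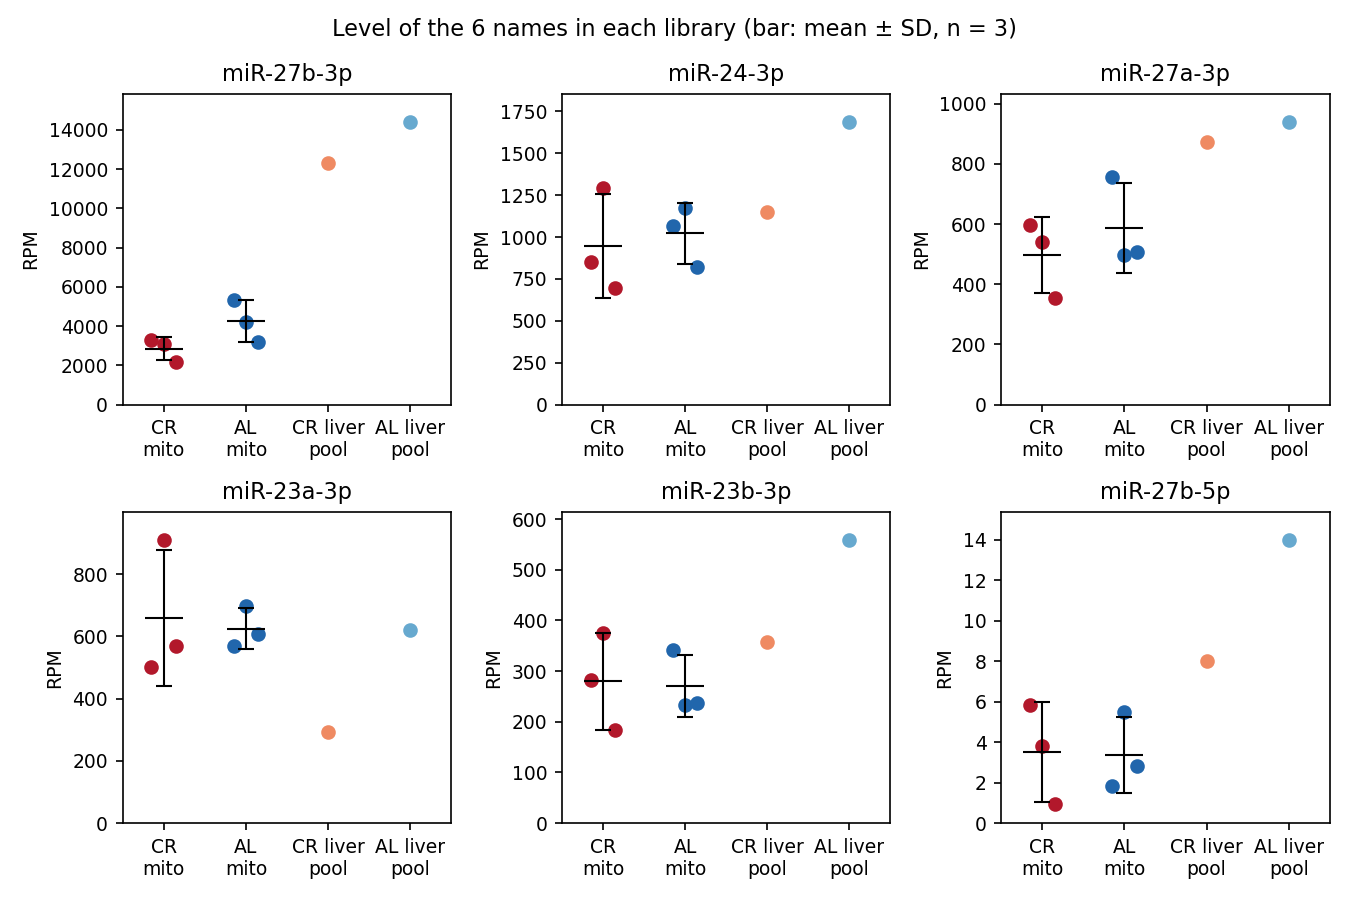
RPM of each of the 6 miRNAs in every library, with a point per library and, for the mitochondrial groups, the mean ± SD (n = 3). miR-27b-3p lay between 2191 and 5348 RPM in mitochondria and at 12300.4 and 14414 RPM in the CR and AL pools, while for miR-23a-3p the AL pool lay among the mitochondrial libraries.

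The mitochondrial libraries were then set against the whole-liver pools, to see which of the 6 were relatively scarce or plentiful in the purified organelle. miR-27b-3p was 3.89-fold lower in mitochondria, and this difference passed the test under every setting tried. miR-27b-5p, the other arm of the same hairpin, was 2.87-fold lower and passed, but on few reads. For the other 4 names the difference did not pass on the RPM scale. miR-23a-3p was the only one of the 6 with a fitted value above 0.

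miR-27b-3p stood at 3278, 3086 and 2191 RPM in CR mitochondria and at 5348, 4204 and 3210.0 RPM in AL mitochondria, against 12300.4 RPM in the CR pool and 14414 RPM in the AL pool. All 6 mitochondrial libraries were below both pools. Its mean was 3553 ± 1088 RPM in mitochondria (SD, n = 6), against 13357 RPM over the 2 pools. The fitted log2 difference, on the log2(RPM + 1) scale, was -1.96 (SE 0.33, 95% interval -2.65 to -1.27, adjusted p = 0.000153, limma). By rank, it was 18th to 24th among all names in the mitochondrial libraries and 14th (CR) and 11th (AL) in the pools.

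miR-27b-5p was counted with 7, 6 and 1 reads in CR mitochondria and with 2, 6 and 4 reads in AL mitochondria, against 26 reads in the CR pool and 34 in the AL pool. That is 5.83, 3.803 and 0.934 RPM in CR mitochondria and 1.85, 5.48 and 2.81 RPM in AL mitochondria, against 8.02 RPM (CR) and 14.0 RPM (AL) in the pools, with no overlap between mitochondria and pools. The log2 difference was -1.52 (SE 0.56, adjusted p = 0.0435, limma), and it missed the threshold in 13 of 17 alternatives (adjusted p from 0.0206 to 0.391 over all 17). Leaving out either pool, the third CR mitochondrial library, or the first or the third AL mitochondrial library was enough to lose the call. The 5p arm was 0.0992% ± 0.0551 of miR-27b reads of both arms in mitochondria (SD, n = 6), against 0.0652% in the CR pool and 0.0969% in the AL pool (exact two-sided permutation p = 0.714). So the share of the 2 arms of Mir27b did not differ detectably between mitochondria and whole liver at this depth.

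miR-27a-3p, which has the same seed as miR-27b-3p, had 597.0, 541 and 354 RPM in CR mitochondria and 758, 496 and 507 RPM in AL mitochondria, against 873 RPM in the CR pool and 939.7 RPM in the AL pool. Every mitochondrial library lay below both pools, but the log2 difference of -0.78 (SE 0.32, adjusted p = 0.0728, limma) did not pass. It passed without the first AL mitochondrial library (log2 difference -0.87, adjusted p = 0.0368, limma), but with the 4 other scalings, edgeR and DESeq2 it shrank to between -0.47 and -0.32 (adjusted p 0.226 to 0.431). miR-24-3p overlapped between the fractions, at 850.1, 1293 and 696 RPM in CR mitochondria and 1067, 1175 and 823 RPM in AL mitochondria, against 1148 RPM (CR) and 1687 RPM (AL) in the pools, with a log2 difference of -0.53 (SE 0.32, adjusted p = 0.222, limma).

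The miR-23 pair had fitted values of opposite sign. miR-23b-3p had 283, 375 and 183 RPM in CR mitochondria and 342, 233 and 238 RPM in AL mitochondria, against 358 RPM in the CR pool and 558 RPM in the AL pool. The highest mitochondrial library was above the CR pool, and the log2 difference of -0.74 (SE 0.34, adjusted p = 0.111, limma) did not pass. Without the second CR mitochondrial library, the one with the low miR-122 share, it passed (log2 difference -0.87, adjusted p = 0.0443, limma), but with the 4 other scalings, edgeR and DESeq2 it shrank to between -0.43 and -0.31 (adjusted p 0.297 to 0.506). miR-23a-3p had 500.4, 908 and 569.7 RPM in CR mitochondria and 568, 696 and 607 RPM in AL mitochondria, against 293 RPM in the CR pool and 621 RPM in the AL pool. All mitochondrial libraries were above the CR pool and 2 of 6 were above the AL pool, and the log2 difference was 0.56 (SE 0.34, adjusted p = 0.223, limma). This value rested on the CR pool, being 0.00 without it and 1.12 without the AL pool.

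Of the 6 names, 2 were called lower and none higher. Over all 417 miRNAs tested, 90 were called lower, 21.6% of them, and 44 were called higher, 10.6%. Without the second CR mitochondrial library 3 of the 6 were called lower, in a fit that called 137 of all 391 miRNAs in either direction. The median log2 difference of the 6 was -0.76, against -0.31 over all miRNAs tested. With all libraries, the count of the 6 called lower is thus little above the background, and the 2 calls are arms of 1 hairpin. Groups did not overlap for miR-27a-3p, miR-27b-3p and miR-27b-5p, each lower in mitochondria, as for 113 of all 417 (27.1%). All 6 passed the filter on low values, which was at least 1 RPM in 3 libraries.

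The scale of the libraries touched these values. With TMM factors the median of all miRNAs moved to 0.01 and the calls became 75 higher and 67 lower, against 44 higher and 90 lower on the RPM scale. Relative to the median of its own fit, miR-27b-3p was -1.66 on the RPM scale, and its TMM value was -1.53. miR-23a-3p was +0.86 relative to the median on the RPM scale and was called higher in mitochondria with TMM factors (log2 difference 0.99, adjusted p = 0.0248, limma). It was also called higher with DESeq2 size factors, with upper quartile factors, with miR-122 left out of the total, by edgeR and by DESeq2, with log2 differences of 0.82 to 0.98. miR-27b-5p was not called in any of those 6.

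**Figure D2:**
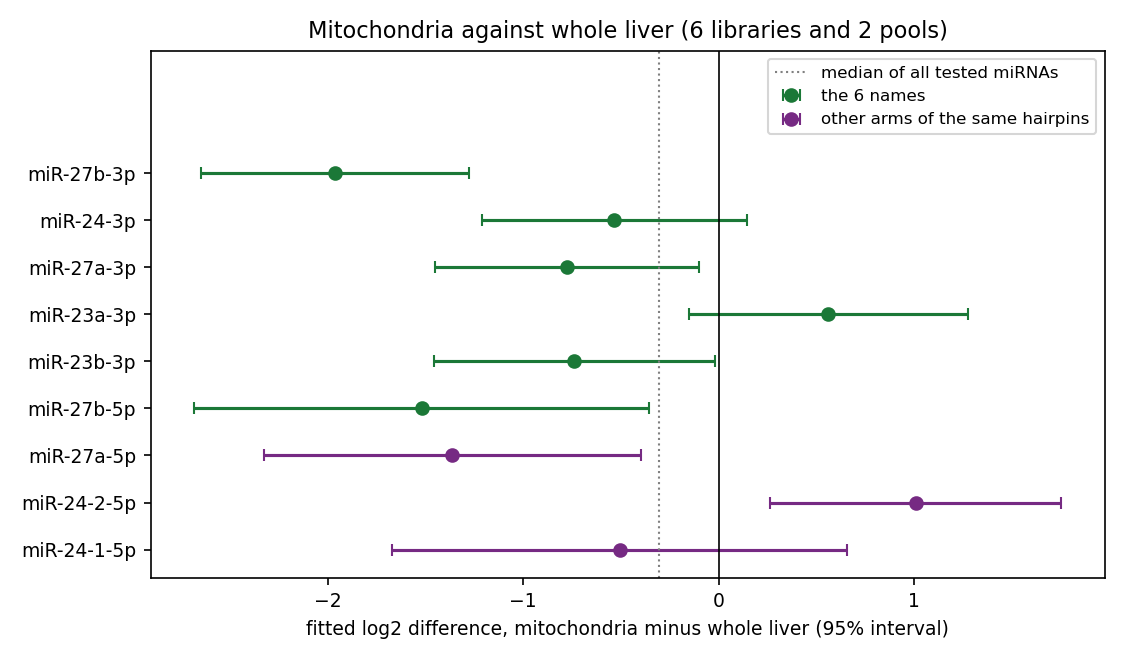
Fitted log2 difference of mitochondria minus whole liver on log2(RPM + 1), with 95% intervals, for the 6 miRNAs and for 3 other arms of their hairpins. The dotted line is the median of all tested miRNAs (-0.31), and miR-27b-3p lies farthest from it, at -1.96, while miR-24-2-5p lies at 1.01.

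Shares of reads within a seed pair do not depend on the library's scale. miR-23a-3p made up 63.9%, 70.8% and 75.7% of miR-23 3p reads in CR mitochondria and 62.4%, 74.9% and 71.9% in AL mitochondria, against 45.0% in the CR pool and 52.7% in the AL pool. Its mean was 69.9% ± 5.58 in mitochondria (SD, n = 6), against 48.9% over the 2 pools. miR-27a-3p made up 15.4%, 14.9% and 13.9% of miR-27 3p reads in CR mitochondria and 12.4%, 10.6% and 13.6% in AL mitochondria, against 6.62% in the CR pool and 6.12% in the AL pool, with a mean of 13.5% ± 1.77 in mitochondria (SD, n = 6) and 6.37% over the 2 pools. For both seed pairs the member from chromosome 8 thus held a higher share in each mitochondrial library than in either pool. Each of these differences had an exact two-sided permutation p of 0.0714, the smallest that 6 against 2 libraries allow, and an adjusted p of 0.107 over the 6 shares computed. Seen as a ratio, miR-27b-3p outnumbered miR-27a-3p by 5.49 to 8.48 times in mitochondria, against 14.1 times in the CR pool and 15.3 times in the AL pool. miR-23a-3p outnumbered miR-23b-3p by 1.66 to 3.11 times in mitochondria, against 0.820 times in the CR pool and 1.11 times in the AL pool. These shares were compared between fractions after the values had been seen.

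**Figure D3:**
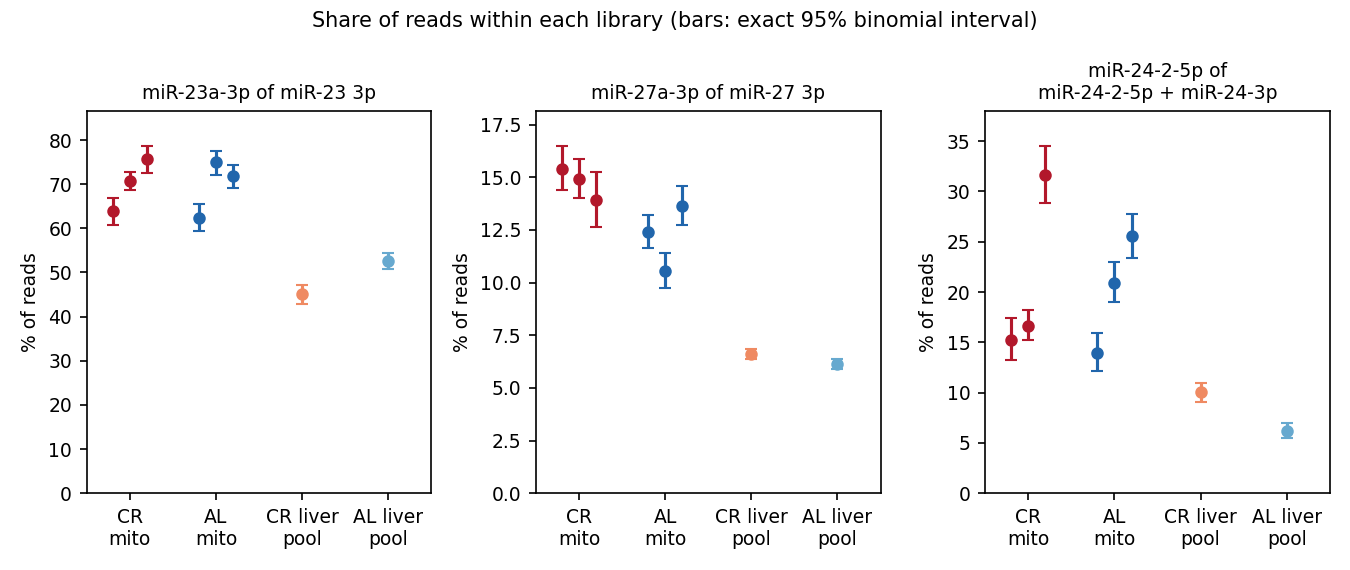
Share of reads in percent for miR-23a-3p among miR-23 3p reads, miR-27a-3p among miR-27 3p reads, and miR-24-2-5p among reads of miR-24-2-5p and miR-24-3p, 1 point per library with its exact 95% binomial interval, which covers counting error only. In all 3 panels every mitochondrial library lies above both pools (for miR-27a-3p, 10.6% to 15.4% against 6.62% and 6.12%).

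The other arms of the same hairpins divided by hairpin. They are shown because the 5p arm tells the hairpins of miR-24 apart, again with the seed in capitals.
miR-24-2-5p: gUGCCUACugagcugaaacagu
miR-24-1-5p: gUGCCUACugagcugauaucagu
miR-27a-5p: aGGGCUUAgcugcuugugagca
miR-24-2-5p, from chromosome 8, had 153, 259 and 322 RPM in CR mitochondria and 174, 311 and 282 RPM in AL mitochondria, against 128 RPM in the CR pool and 111 RPM in the AL pool. Every mitochondrial library was above both pools, and the log2 difference of 1.01 (SE 0.36, adjusted p = 0.0382, limma) passed. It was called in 12 of 18 alternatives, and fitting without a filter on low values or leaving out either pool, the third CR mitochondrial library, or the second or the third AL mitochondrial library lost the call. miR-24-1-5p, from chromosome 13, had 1.67 to 11.2 RPM in mitochondria, against 7.09 RPM (CR) and 9.46 RPM (AL) in the pools, and did not pass (log2 difference -0.51, adjusted p = 0.494, limma).

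The Mir24-2 hairpin gave nearly all 5p reads of miR-24. Its share was 96.6% to 98.9% in the mitochondrial libraries, against 94.7% in the CR pool and 92.2% in the AL pool (exact two-sided permutation p = 0.0714, the smallest possible, adjusted p = 0.107). Set against miR-24-3p, miR-24-2-5p made up 15.3%, 16.7% and 31.7% of the reads of both names in CR mitochondria and 14.0%, 20.9% and 25.5% in AL mitochondria, against 10.01% in the CR pool and 6.20% in the AL pool (exact two-sided permutation p = 0.0714, adjusted p = 0.107). miR-27a-5p was lower in mitochondria, at 4.16 to 11.0 RPM, against 18.2 RPM in the CR pool and 23.9 RPM in the AL pool (log2 difference -1.36, adjusted p = 0.0307, limma). That call held in 8 of 18 alternatives, and none of the 4 other scalings, edgeR, DESeq2 or the fit without a filter made it. Leaving out either pool or the first CR mitochondrial library also lost it. Of the 3 other arms tested, 1 was thus higher and 1 lower. miR-23b-5p was listed only in the pools, with 7 reads (CR) and 3 reads (AL), or 2.16 and 1.23 RPM, and its count of 0 over all 6 mitochondrial libraries allows up to 0.403 RPM. The filter on low values left it out. In the fit without that filter its log2 difference was -1.41, a size that rests on the 1 RPM added before taking logs. Its values of 0 in all 6 mitochondrial libraries have no spread, so the p-value of that fit is not used as support. miR-23a-5p was not listed.

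Reads of miR-24-3p were matched by those of a name from the opposite strand. RefSeq places the hairpins Mir3074-2 and Mir3074-1 on the minus strand across Mir24-2 and Mir24-1, and 20 of the 22 bases of miR-24-3p are the reverse complement of bases in miR-3074-5p, shown here with its seed in capitals.
miR-3074-5p: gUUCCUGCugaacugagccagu
miR-24-3p had 1021, 2040 and 745 reads in CR mitochondria and 1156, 1287 and 1170 reads in AL mitochondria, against 3721 reads in the CR pool and 4103 reads in the AL pool. miR-3074-5p had 934, 2027 and 732 reads in CR mitochondria and 1078, 1281 and 1156 reads in AL mitochondria, against 3605 reads in the CR pool and 4061 reads in the AL pool. The ratio of miR-24-3p to miR-3074-5p was 1.005 to 1.09 in all 8 libraries. miR-24-2-5p and miR-3074-2-3p stood in the same relation, with 414 and 405 reads in the CR pool and 271 and 262 reads in the AL pool. The scarce pair miR-24-1-5p and miR-3074-1-3p matched less closely. It had 23 and 17 reads in each pool, and 47 and 14 reads over the 6 mitochondrial libraries together. Whether strand was used in counting is not given in the sources used here, so reads of these names cannot be told apart, and the values of miR-24-3p and miR-24-2-5p may hold reads of either strand.

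miR-128-3p, whose seed is that of miR-27 shifted by 1 base, is printed to show the overlap.
miR-128-3p: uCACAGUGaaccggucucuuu
It was also lower in mitochondria, at a mean of 23.4 RPM against 65.8 RPM over the 2 pools (log2 difference -1.52, adjusted p = 0.00826, limma). Without the CR pool, or with miR-122 left out of the total, this call was lost.

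The diets were compared in mitochondria, the comparison with replicates. For none of the 6 did the difference between CR and AL mitochondria pass the test: 0 of 6 were called by limma, 0 by edgeR and 0 by DESeq2. Only 2 of 391 miRNAs tested were called at all by limma, 0.512%, and 52 of 391 (13.3%) had an unadjusted p under 0.05, none of them among the 6. CR and AL libraries overlapped for each of the 6, whereas they did not for 76 of all 391 (19.4%).

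miR-27b-3p had the largest fitted difference of the 6, with a mean of 2852 ± 580.1 RPM in CR mitochondria and 4254 ± 1070.0 RPM in AL mitochondria (SD, n = 3 each). The highest CR library, at 3278 RPM, was above the lowest AL library, at 3210.0 RPM. Its log2 difference of -0.57 had a 95% interval of -1.28 to 0.15 (SE 0.34, adjusted p = 0.499, limma), against a median of -0.17 over all miRNAs tested. The sign was negative in all 17 alternatives (-0.76 to -0.28), and none called it. Among these, a change of filter and the replicate block cannot move the log2 difference, so they do not test its sign.

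miR-27a-3p averaged 497 ± 127 RPM in CR mitochondria and 587 ± 148 RPM in AL mitochondria (log2 difference -0.24, 95% interval -0.96 to 0.47). miR-24-3p averaged 946 ± 310.0 RPM in CR mitochondria and 1022 ± 181 RPM in AL mitochondria (log2 difference -0.14, 95% interval -0.85 to 0.57). Both signs turned with another scale, so no direction can be given for them. miR-23a-3p averaged 659 ± 218 RPM in CR mitochondria and 624 ± 65.6 RPM in AL mitochondria (log2 difference 0.04, 95% interval -0.66 to 0.73). miR-23b-3p averaged 280.2 ± 95.8 RPM in CR mitochondria and 271 ± 61.4 RPM in AL mitochondria (log2 difference 0.01, 95% interval -0.73 to 0.76). The second CR library held the highest value of both miR-23 names, and without it their log2 differences were -0.22 and -0.23. miR-27b-5p averaged 3.52 ± 2.46 RPM in CR mitochondria and 3.38 ± 1.88 RPM in AL mitochondria, and its 95% interval on the log2 scale ran from -1.31 to 1.21. The intervals of the 5 abundant names reach to between 0.66 and 1.28 below 0 on the log2 scale and to between 0.15 and 0.76 above it, so larger changes in mitochondria lie outside them, while smaller ones could not be detected with 3 libraries a diet.

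Within the miR-27 pair the diets did not overlap. miR-27a-3p was 14.7% ± 0.765 of miR-27 3p reads in CR mitochondria and 12.2% ± 1.55 in AL mitochondria (SD, n = 3 each), a difference of 2.55 percentage points. The lowest CR library had 13.9% and the highest AL library 13.6%, and their counting intervals overlapped. The exact two-sided permutation p was 0.1, the smallest that 3 against 3 libraries allow, and the adjusted p over the 6 shares was 0.6. In the pools the same share was 6.62% under CR and 6.12% under AL. The share of miR-23a-3p in the miR-23 pair was 70.1% ± 5.94 in CR mitochondria and 69.7% ± 6.51 in AL mitochondria (exact two-sided permutation p = 0.9, n = 3 each). The 5p share of miR-27b was 0.114% ± 0.0679 in CR mitochondria and 0.0841% ± 0.0479 in AL mitochondria (exact two-sided permutation p = 0.5, n = 3 each).

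In whole liver the diets were represented by 1 pool each, so ratios have no test, and the 95% Clopper-Pearson intervals given here cover counting error only. All 6 names were lower in the CR pool than in the AL pool, as were 155 (63.8%) of the 243 miRNAs that reached 10 RPM in either pool. miR-23a-3p differed most, with 951 reads in the CR pool and 1509 in the AL pool, a ratio of 0.473 (0.435 to 0.513) or 2.12-fold lower. miR-23b-3p had a ratio of 0.641 (0.592 to 0.694). miR-27b-5p had a ratio of 0.574 (0.331 to 0.984) from 26 and 34 reads. With 8.02 RPM in the CR pool and 14.0 RPM in the AL pool, it met the limit of 10 RPM only through the pool where it was higher.

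The ratio was 0.680 for miR-24-3p (0.650 to 0.711), 0.853 for miR-27b-3p (0.841 to 0.866) and 0.929 for miR-27a-3p (0.878 to 0.982). At least 1.5-fold lower were 3 of the 6, miR-27b-5p among them, against 68 of all 243 (28.0%). In either direction, 90 of all 243 (37.0%) were at least 1.5-fold apart. The number of the 6 that were 1.5-fold apart was 1 with TMM factors, 2 with DESeq2 size factors and 4 with upper quartile factors. No share over all miRNAs is given for those scalings, so these counts cannot be set against a background. The median log2 ratio was -0.60 for the 6 and -0.22 for all 243, and with TMM factors the median of all moved to 0.00. miR-27a-3p was then above 0, at a log2 ratio of 0.11.

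**Figure D4:**
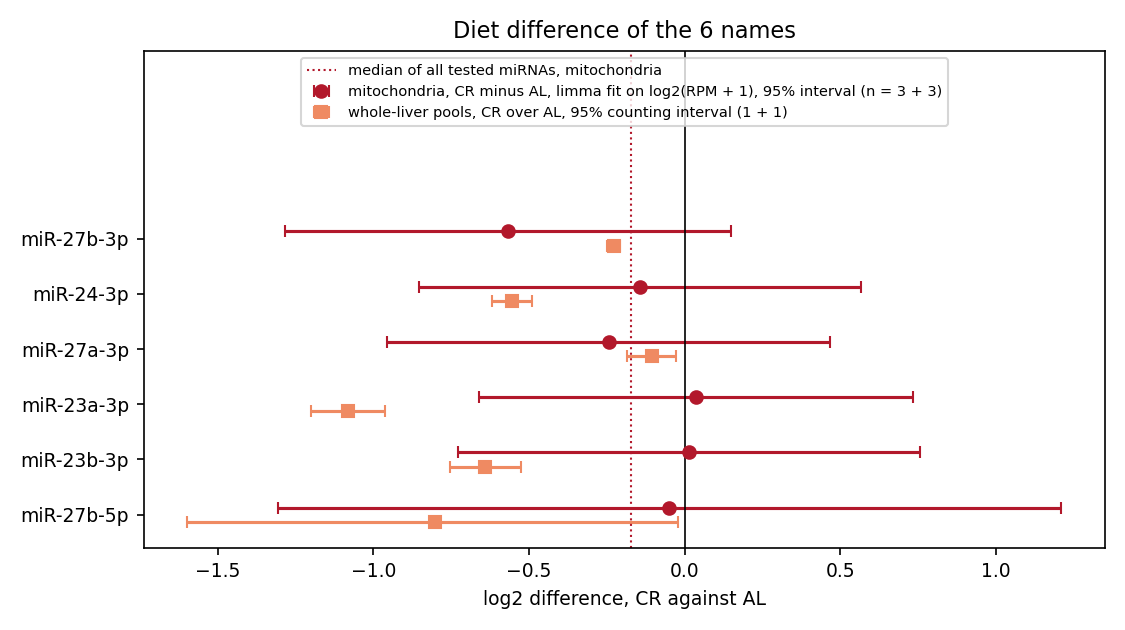
Log2 difference of CR against AL for each of the 6 miRNAs, in mitochondria (fit on 3 and 3 libraries, 95% interval) and between the whole-liver pools (1 and 1 library, 95% counting interval). Each mitochondrial interval spans 0, and miR-23a-3p stands at 0.04 in mitochondria and at -1.08 between the pools.

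Whether the diet difference itself differed between mitochondria and whole liver was tested with an interaction term. None of the 6 and none of all 417 miRNAs was called by limma (0.0%), edgeR or DESeq2, and 5 of 417 had an unadjusted p under 0.05 (1.2%) by limma, 18 by edgeR and 8 by DESeq2. miR-23a-3p had the largest interaction of the 6, at 1.12 on the log2 scale (SE 0.66, 95% interval -0.28 to 2.51, adjusted p = 0.998, limma). So its diet difference between the pools and that in mitochondria are not shown to differ. The others lay between -0.34 and 0.68. The spread in this test came from the mitochondrial libraries alone.

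Names from 1 cluster were not always the most alike across libraries. Over the 8 libraries, Pearson's r of log2(RPM + 1) was 0.91 between miR-27a-3p and miR-27b-3p, which share a seed but lie on different chromosomes, and -0.42 between miR-23a-3p and miR-27a-3p, which share a cluster. It was 0.79 between miR-23b-3p and miR-27b-3p, also of 1 cluster. Over the 6 mitochondrial libraries alone these were 0.85, -0.08 and 0.55. Among 101 miRNAs with a mean of at least 100 RPM, those most like miR-27b-3p over the 8 libraries were miR-125b-5p (r = 0.98) and miR-30c-2-3p (0.97). Those most like miR-23a-3p were miR-30a-3p (0.85) and miR-101a-3p (0.77). Nearest to miR-27a-3p were miR-107-3p (0.95) and miR-203-3p (0.94), and nearest to miR-23b-3p were miR-20a-5p and miR-374b-5p (0.93 each). miR-24-3p was closest to miR-3074-5p (0.99), the name from the opposite strand, and then miR-99b-5p (0.94). miR-27b-5p was closest to miR-125a-5p (0.87) and miR-125b-5p (0.85). These are descriptions over 8 libraries that share depth, scale and the split into fractions.

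Markers of other liver cells also moved between the fractions. The 6 hepatocyte marker miRNAs summed to 508524 to 703002 RPM in CR mitochondria and 563902 to 607220 RPM in AL mitochondria, against 553477 RPM (CR) and 464005 RPM (AL) in the pools, and none of them was called. The 4 endothelial markers summed to 13312 to 31638 RPM in CR mitochondria and 19809 to 22407 RPM in AL mitochondria, against 23708 RPM (CR) and 28269 RPM (AL) in the pools, with 1 called higher and 1 lower. The lower one was miR-126a-3p (log2 difference -1.08, adjusted p = 0.0424, limma). The most abundant of the 4, miR-10a-5p, was not called (log2 difference 0.24, adjusted p = 0.619, limma), so the list gives no common direction.

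The 6 leukocyte and Kupffer cell markers summed to 2959 to 4840 RPM in CR mitochondria and 8026 to 11012 RPM in AL mitochondria, against 709.7 RPM (CR) and 1029 RPM (AL) in the pools. That sum was mostly miR-146a-5p, the single marker of the list that was called (log2 difference 3.54, adjusted p = 7.16e-07, limma). The next most abundant, miR-142a-5p, had a fitted value below 0 and was not called (log2 difference -0.93, adjusted p = 0.0608, limma). This list thus gives no common direction either. The 5 stellate cell and fibroblast markers summed to 25517 to 44533 RPM in CR mitochondria and 35423 to 47282 RPM in AL mitochondria, against 15573 RPM (CR) and 14443 RPM (AL) in the pools, with 1 higher and 2 lower. That sum was mostly the higher one, miR-143-3p (log2 difference 1.48, adjusted p = 0.00386, limma). The next most abundant, miR-199a-3p, was not called between the fractions (log2 difference -0.16, adjusted p = 0.719, limma). Here too the list gives no common direction. The 4 bile duct markers summed to 379 to 546 RPM in CR mitochondria and 276 to 525 RPM in AL mitochondria, against 959.6 RPM (CR) and 876 RPM (AL) in the pools, with 2 lower. Erythroid, muscle and pancreas markers each summed to under 161 RPM in every library, and none was called between the fractions. Between the diets in mitochondria, both miRNAs called among all 391 were on these lists. The lists were chosen with earlier results of these data known, so this overlap is a description only. miR-802-5p, a hepatocyte marker, was higher under CR, at a mean of 366 RPM in CR mitochondria and 59.4 RPM in AL mitochondria (log2 difference 2.97, adjusted p = 0.00768, limma). miR-199a-3p, a stellate cell and fibroblast marker, was lower, at a mean of 602 RPM in CR mitochondria and 1889 RPM in AL mitochondria (log2 difference -1.64, adjusted p = 0.0141, limma). The part of these cells in the values of the 6 names was not tested.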

How the data were processed

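Small RNA libraries of CR and AL liver mitochondria (3 each) and whole liver (1 pool each) were used, grouped by their labels. The deposited values are RPM, the authors' reads per name scaled to 1000000 per library, although the column names say tpm. The submitters' processing notes name Bowtie, without a version, and the build mm9. Name assignment, mismatches, multiple hits and use of strand are not given in the sources used here. Every value was a whole multiple of 1 read (100% within 0.01 read), so reads were recovered by division, and names not listed were set to 0.

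The main test was limma-trend on log2(RPM + 1), with limma 3.58.1 under R 4.3.3. It took all miRNAs that reached 1 RPM in 3 or more libraries of the fit, and p-values were adjusted over them by Benjamini-Hochberg, 0.05 being the threshold. Diet was fitted in the 6 mitochondrial libraries. Fraction, adjusted for diet, and the interaction were fitted over all 8, which assumes that the pools vary like the mitochondrial libraries. Pools were compared as ratios for names with at least 10 RPM in 1 pool, 1.5-fold being the limit used. Shares were compared with exact two-sided permutation tests (scipy 1.17.1 with numpy 2.4.6, pandas 2.3.3 and Python 3.11.15; plots with matplotlib 3.10.9). Alternatives were pseudocounts of 0.5 and 5, no filter or 10 RPM, TMM, DESeq2 and upper quartile factors, miR-122 left out of the total, edgeR 4.0.16 (quasi-likelihood) and DESeq2 1.42.0 on the recovered reads, leaving out each library, and a replicate block. The diet fits by limma, edgeR and DESeq2 were tested on simulated data, and the fraction and interaction fits were not.

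The miRNAs named were the 6, the other arms of their hairpins, and names with the same or a shifted seed. Also named were the 2 names most like each of the 6 among those with a mean of at least 100 RPM. From the marker lists came miR-122 and the 2 most abundant of the endothelial, the leukocyte and Kupffer cell, and the stellate cell and fibroblast lists. The miR-3074 names and miR-802-5p were added after their values were seen. The 6 and the lists were chosen with earlier results of these data known. Mature sequences come from the deposited tables, and hairpins and coordinates from RefSeq (GRCm38.p6), whose table held all of the 6 mature names except miR-23b-3p. Depth limits low names: 3 reads equal 1.90 to 2.80 RPM in mitochondria, 0.925 RPM in the CR pool and 1.23 RPM in the AL pool, and intervals and floors cover counting error only.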

Additional observations from a re-analysis of the deposited data

How the results depend on the processing

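The lower level of miR-27b-3p in mitochondria kept its direction and its call in all 18 alternatives (log2 difference -2.13 to -1.52, adjusted p 5.63e-07 to 0.0191). The count of the 6 called between fractions was 2. It was 1 with a pseudocount of 0.5, with no filter and with a filter of 10 RPM, under which miR-27b-5p was not tested. The count was 1 to 3 when a mitochondrial library was left out, with 1 without the third CR library or the third AL library. It stayed 2 with other scalings, edgeR and DESeq2, where the calls were miR-23a-3p (higher) and miR-27b-3p (lower). Over all miRNAs, calls then split as 62 higher of 134 with DESeq2 size factors, 67 of 139 with upper quartile factors, 66 of 129 without miR-122, 97 of 167 by edgeR and 78 of 149 by DESeq2, against 44 of 134. Leaving out a pool left 1 whole-liver library. The log2 difference of miR-27b-3p was then -1.79 without the CR pool and -2.13 without the AL pool. For miR-27b-5p it was -1.86 without the CR pool and -1.18 without the AL pool. Over all miRNAs, 131 of 417 were called with a pseudocount of 0.5, 139 of 862 with no filter and 106 of 242 with a filter of 10 RPM. Without the second CR mitochondrial library, where 3 of the 6 were called, 137 of 391 were. Where 1 of the 6 was called, it was 117 of 410 without the third CR library and 111 of 398 without the third AL library. Where 2 were called, it was 132 of 414 without the first CR library, 140 of 405 without the first AL library and 117 of 402 without the second AL library. The cause of these shifts was not tested.

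Diet counts stayed at 0 of 6 in mitochondria and in the interaction under every alternative, while edgeR called 7 and DESeq2 11 of all miRNAs in the diet comparison, against 2. With no filter, 129 of 862 names were called in the interaction, none of them among the 6. Signs of small diet differences in mitochondria turned, with log2 values as follows. When a library was left out, miR-23a-3p ranged from -0.22 to 0.21, miR-23b-3p from -0.23 to 0.29, miR-24-3p from -0.39 to 0.053 and miR-27b-5p from -0.44 to 0.47. For miR-27a-3p it was 0.047 with upper quartile factors and 0.0069 by DESeq2. For miR-24-3p it was 0.057 with TMM, 0.10 with DESeq2 size factors, 0.15 with upper quartile factors, 0.0018 without miR-122, 0.056 by edgeR and 0.11 by DESeq2. For miR-27b-5p it was 0.0044 with a pseudocount of 5, 0.074 with TMM, 0.11 with DESeq2 size factors, 0.15 with upper quartile factors, 0.019 without miR-122, 0.25 by edgeR and 0.28 by DESeq2. The interaction of miR-27a-3p turned to 0.043 with TMM, 0.20 with upper quartile factors and 0.052 by edgeR, and ranged from -0.29 to 0.089 without a library. Its pool ratio turned to a log2 value of 0.11 with TMM and 0.074 with DESeq2 size factors. The count of names 1.5-fold apart between pools was 3 of 6, against 90 of all 243 (37.0%), on the RPM scale. It was 1 with TMM, 2 with DESeq2 size factors and 4 with upper quartile factors. When a library was left out, the CR minus AL difference ranged from -3.29 to 3.49 percentage points for the miR-23a-3p share, from 1.72 to 3.26 for the miR-27a-3p share and from -0.00122 to 0.0662 for the miR-27b-5p share.

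With the replicate block, 0 of the 6 were called between diets in mitochondria and 3 of all miRNAs, against 2. The labels do not say whether equal replicate numbers pair the libraries, and correlations of their deviations did not settle it. Libraries with the same number correlated at 0.364, 0.0752 and 0.107. The first and the second CR library correlated best with the AL library of their own number, but the third with the second AL library (0.215). For miR-27b-3p the block kept the log2 difference at -0.57 and lowered its SE from 0.34 to 0.23. Its adjusted p was 0.243 with the block and 0.499 without it (limma). For the same reason the 3 share differences stayed at 0.369, 2.55 and 0.0303 percentage points. No paired analysis was possible for the other comparisons because the pools share fewer than 2 numbers.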
